A study of Danio rerio with 8 samples.

Results

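The genes described here make, transport and remove retinoic acid, the signalling form of vitamin A. They were taken by gene name, from a set drawn up with earlier results of these data known: rdh10a, rdh10b, aldh1a2, aldh1a3, dhrs3a, dhrs3b, cyp26a1, cyp26b1, cyp26c1 and rbp4. All 10 were found by gene symbol among the 25725 genes listed for each library, and all 10 had enough counts to be tested. The data are bulk RNA-seq of zebrafish (Danio rerio) collected as larvae 5 days after fertilization, with 8 libraries. In 4 of them the embryos were kept from 2 hours after fertilization with TCDD, the dioxin that is the classic activator of the aryl hydrocarbon receptor, and in the other 4 with the solvent DMSO over the same period. The labels name the tissue as heart and give no genotype, strain, TCDD concentration, clutch or number of larvae per sample. Each p value therefore rests on the spread among libraries of a group, which may be technical.

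Retinoic acid is made from retinol in a pair of oxidations: retinol dehydrogenases such as RDH10 form retinal, and retinaldehyde dehydrogenases of the ALDH1A family turn retinal into retinoic acid. DHRS3 works against the first oxidation by reducing retinal to retinol, and cytochromes of the CYP26 family break retinoic acid down. The plasma protein RBP4, made mainly in liver, carries retinol to the tissues. Retinoic acid binds nuclear receptors (RAR with RXR) and is known from zebrafish to limit the size of the heart field and to act in the epicardium, where aldh1a2 is a classic marker. The genes dhrs3a and cyp26a1 are known in zebrafish to be switched on by retinoic acid itself.

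Total estimated counts per library ran from 14080977 to 14478768 in TCDD and from 14048563 to 15183023 in DMSO. The exposure check gene cyp1a, the cytochrome P450 most used to follow activation of the aryl hydrocarbon receptor, was at 6173 to 9744 CPM (a count made relative to the total of its library) in TCDD and 101 to 164 CPM in DMSO. Transcripts of other organs were abundant under the heart label. Marker genes of liver summed to 33724 to 42158 CPM in TCDD and 30784 to 68575 CPM in DMSO, whereas 11 cardiomyocyte markers summed to 979 to 1575 CPM in TCDD and 1471 to 2259 CPM in DMSO. The cardiac myosin light chain gene myl7 was at 122, 129, 94.0 and 72.8 CPM in TCDD and 267, 137, 217 and 209 CPM in DMSO. Its log2 fold change (TCDD over DMSO) of -0.99 was the lowest of the 11 markers, whose median was -0.38. Of the marker lists, the sum of 11 markers of the retina and its pigment epithelium had the widest relative range, from 42.7 (TCDD 2) to 909 CPM (TCDD 1) in TCDD and from 551 to 1970 CPM (DMSO 4) in DMSO. No marker of these lists was at 0 in all 8 libraries. The library DMSO 1 stood apart: genes with an implied transcript length under 1000 bases held 34.0% of its counts, against 23.5 to 25.0% in the TCDD libraries. The share was also above every TCDD library in DMSO 3 (28.8%) and DMSO 4 (29.6%), and within the TCDD range in DMSO 2 (23.7%). Values below therefore describe the sampled material, in which fewer cells of a type and less RNA per cell cannot be told apart.

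Of the 10 genes rdh10a alone passed the test, rising in TCDD, and 9 did not pass (edgeR quasi-likelihood F-test, Benjamini-Hochberg adjusted p under 0.05 over 20522 genes). Over all genes tested 5.72% passed in either direction, 2.99% higher and 2.73% lower in TCDD, so 1 of 10 is near what the whole table gives. With library size alone in place of scaling by TMM (trimmed mean of M values), 937 genes were higher and 372 lower, against 614 higher and 560 lower as tested here. The log2 fold change (TCDD over DMSO) was positive for 4 genes and negative for 6, with a median of -0.08, beside a median of 4.6e-05 over all genes tested. Every one of the 10 had whole-number estimated counts in all 8 libraries.

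Levels of different genes were compared as deposited TPM, a measure of transcripts that is scaled for their length. It carries no TMM scaling, so changes between the groups are given from the test on counts instead. The retinol carrier gene rbp4 was far above the rest, at 3790 ± 388 TPM in TCDD and 4182 ± 828 TPM in DMSO (SD, n = 4 each). Among the enzymes aldh1a2 was highest, at 41.8 ± 4.06 TPM in TCDD and 44.5 ± 3.80 TPM in DMSO, with no overlap with the next gene in either group. In TCDD the order then ran rdh10a (33.0 ± 2.00 TPM), cyp26b1 (21.3 ± 2.09), dhrs3b (18.3 ± 1.40), dhrs3a (11.1 ± 1.17), rdh10b (10.6 ± 0.423), aldh1a3 (8.05 ± 0.695), cyp26a1 (5.74 ± 1.82) and cyp26c1 (3.11 ± 0.189). In DMSO cyp26b1 (18.7 ± 5.35 TPM) and rdh10a (18.5 ± 4.27 TPM) could not be ranked apart. The ranges of neighbours in the DMSO order below aldh1a2 overlapped at every step down to cyp26c1 (2.70 ± 1.06 TPM). Within every single DMSO library, though, rdh10a was above dhrs3b, dhrs3a above rdh10b, rdh10b above aldh1a3 and cyp26a1 above cyp26c1. In TCDD the neighbours whose ranges overlapped were cyp26b1 with dhrs3b, dhrs3a with rdh10b, and aldh1a3 with cyp26a1. Within every single TCDD library cyp26b1 was above dhrs3b and aldh1a3 above cyp26a1, while the order of dhrs3a and rdh10b varied.

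**Figure D1:**
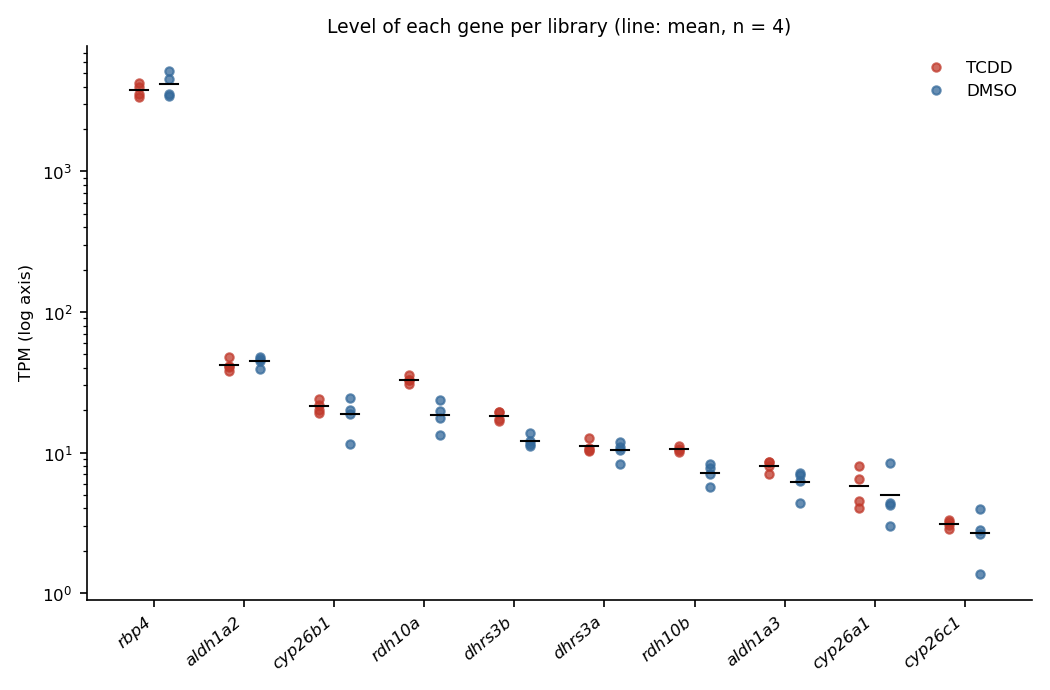
TPM of each gene (log axis) in the 4 TCDD libraries and the 4 DMSO libraries, ordered by the DMSO mean; points are libraries and lines are means. The gene rbp4 lies far above the rest in both groups and aldh1a2 above 38 TPM in every library, while cyp26c1 is the lowest in both groups.

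The first oxidation is run by the retinol dehydrogenase genes rdh10a and rdh10b. The estimated counts of rdh10a (NCBI gene 562840) were 837, 937, 865 and 851 in TCDD libraries 1 to 4, against 473, 613, 544 and 610 in DMSO libraries 1 to 4. On library sizes scaled by the TMM method these were 56.5, 64.9, 57.7 and 54.7 CPM in TCDD and 37.8, 41.3, 38.0 and 42.6 CPM in DMSO. Every TCDD library was above every DMSO library, with the highest value in TCDD 2. The gene rose 1.46-fold (log2 fold change 0.55 ± 0.10 SE, 95% interval 1.26-fold to 1.70-fold, edgeR adjusted p = 0.0085). Without both DMSO 1 and TCDD 2 the log2 fold change was 0.47 (edgeR adjusted p = 0.0402).

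Its paralog rdh10b (NCBI gene 378722) was at 11.4, 12.5, 11.3 and 10.9 CPM in TCDD and 10.1, 8.96, 9.22 and 10.3 CPM in DMSO. The groups did not overlap, as was so for 14% of all genes tested in either direction and for 7.61% with TCDD higher. The difference did not pass the test (log2 fold change 0.25 ± 0.12, 95% interval -0.00 to 0.51, edgeR adjusted p = 0.228). On this scale rdh10a and rdh10b were the only members whose groups did not overlap. On deposited TPM dhrs3b did not overlap either (16.8 to 19.6 TPM in TCDD and 11.2 to 13.8 TPM in DMSO). The share of all genes that do not overlap on TPM was not computed, so this separation has no background to be read against. For dhrs3b the library DMSO 1 was at 21.9 CPM, within the TCDD range, but at 11.5 TPM. Deposited TPM carries no TMM scaling. On it dhrs3a, cyp26a1, cyp26b1 and cyp26c1 also averaged higher in TCDD, though their log2 fold changes from the test were negative. Only aldh1a2 and rbp4 averaged lower in TCDD on TPM. Taken as a share of the summed rdh10 TPM, rdh10a made up 75.7 ± 0.400% in TCDD and 71.8 ± 1.68% in DMSO.

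**Figure D2:**
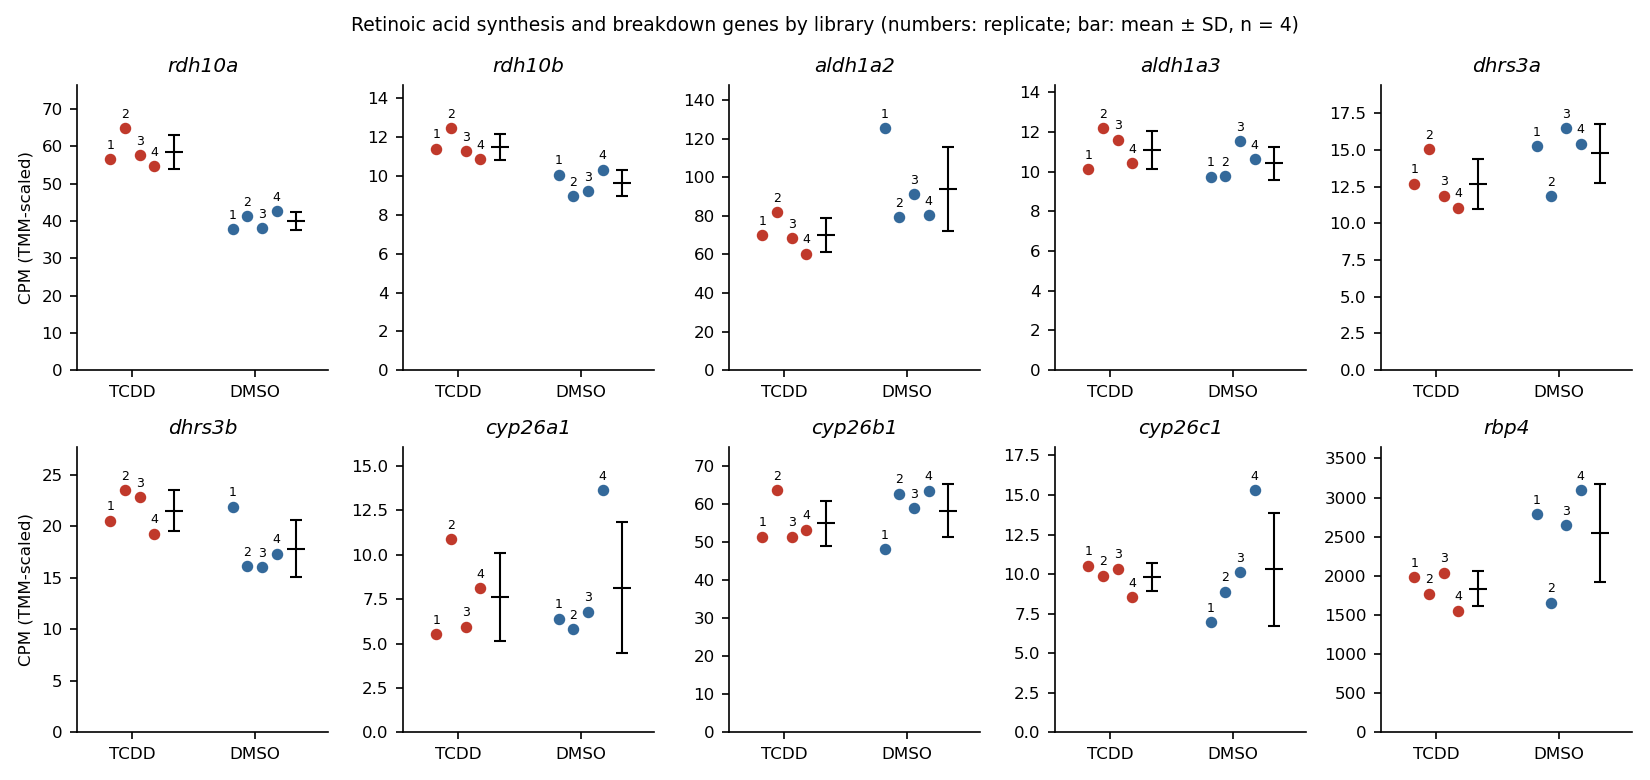
CPM of each of the 10 genes on TMM-scaled library sizes, with TCDD left of DMSO; points are libraries numbered by replicate and bars are mean ± SD (n = 4). For rdh10a the TCDD libraries (54.7 to 64.9 CPM) lie above the DMSO libraries (37.8 to 42.6 CPM), and for cyp26a1 and cyp26c1 the library DMSO 4 is the highest of all 8.

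The second oxidation belongs to aldh1a2 and aldh1a3. The gene aldh1a2 (NCBI gene 116713), whose enzyme makes most embryonic retinoic acid in vertebrates, was at 69.9, 81.9, 68.4 and 60.3 CPM in TCDD and 125, 79.1, 91.2 and 80.2 CPM in DMSO. In 3 TCDD libraries the value was below all DMSO libraries, TCDD 2 lay within the DMSO range, and DMSO 1 stood above the rest. The difference did not pass (log2 fold change -0.42 ± 0.16, 95% interval -0.76 to -0.08, edgeR adjusted p = 0.138), and it was -0.25 without DMSO 1 (adjusted p = 0.25). On the deposited TPM scale DMSO 1 did not stand apart for this gene: the values were 40.3, 47.6, 41.3 and 38.1 TPM in TCDD and 46.5, 47.6, 45.0 and 39.1 TPM in DMSO. Yet DMSO 1 had the lowest TPM of all 8 libraries for rdh10a, rdh10b, aldh1a3, dhrs3a, cyp26a1, cyp26b1 and cyp26c1, though not for dhrs3b and rbp4. Of the summed aldh1a TPM, aldh1a2 made up 91.4% in DMSO 1, against 86.2 to 87.0% in the other DMSO libraries. Its TPM therefore does not show that the high value in DMSO 1 was absent. The 4 epicardial markers summed to 21.0 to 29.2 CPM in TCDD and 22.6 to 29.2 CPM in DMSO, with tbx18 higher in TCDD (log2 fold change 0.67, edgeR adjusted p = 0.0207) and tcf21 (-0.81), wt1a (-0.40) and wt1b (-0.12) not passing, and their part in the level of aldh1a2 was not tested.

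The gene aldh1a3 (NCBI gene 751785), known in vertebrates from the eye and nasal region, was at 10.1, 12.2, 11.6 and 10.4 CPM in TCDD and 9.75, 9.77, 11.5 and 10.6 CPM in DMSO. The groups overlapped and the change did not pass (log2 fold change 0.09 ± 0.12, 95% interval -0.18 to 0.36, edgeR adjusted p = 0.722). The share of aldh1a2 in the summed aldh1a TPM was 83.8 ± 1.21% in TCDD and 87.8 ± 2.42% in DMSO.

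Reduction of retinal back to retinol is the work of dhrs3a and dhrs3b. The gene dhrs3a (NCBI gene 445083) was at 12.7, 15.0, 11.9 and 11.1 CPM in TCDD and 15.3, 11.9, 16.5 and 15.4 CPM in DMSO. Apart from TCDD 2 and DMSO 2, the TCDD values were lower, and the difference did not pass (log2 fold change -0.22 ± 0.14, 95% interval -0.53 to 0.09, edgeR adjusted p = 0.392). The gene dhrs3b (NCBI gene 450050) was at 20.5, 23.5, 22.8 and 19.3 CPM in TCDD and 21.9, 16.1, 16.0 and 17.3 CPM in DMSO. Here DMSO 1 alone reached the TCDD range, and the difference did not pass either (log2 fold change 0.27 ± 0.13, 95% interval -0.01 to 0.56, edgeR adjusted p = 0.245). Of the summed dhrs3 TPM, dhrs3a held 37.7 ± 2.14% in TCDD and 46.1 ± 4.45% in DMSO.

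**Figure D3:**
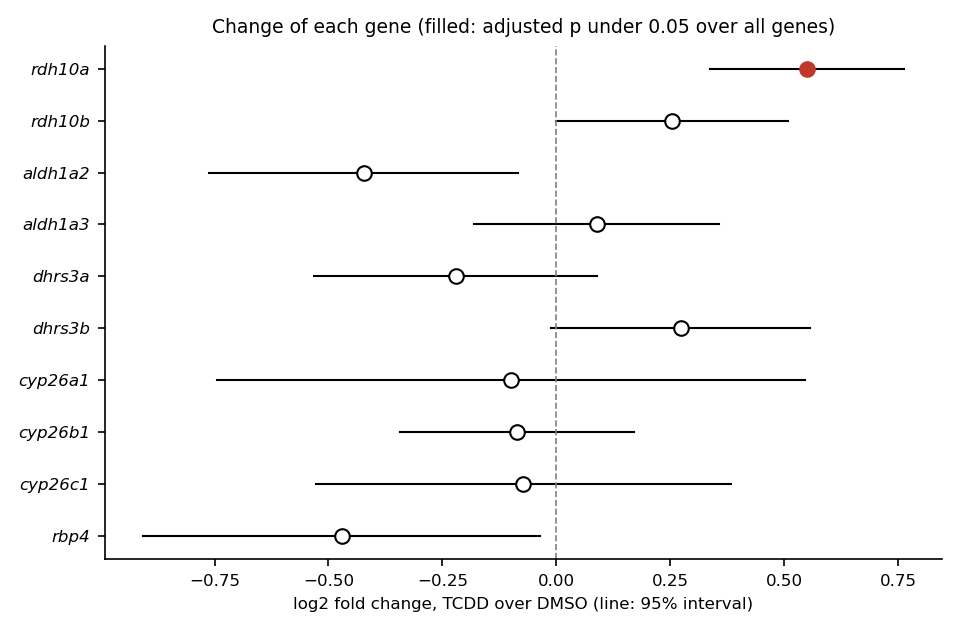
Log2 fold change (TCDD over DMSO) of each gene from edgeR, with its 95% interval as a line; filled points passed an adjusted p of 0.05 over all genes. The interval of rdh10a (0.34 to 0.76) lies to the right of 0. Those of aldh1a2 (-0.76 to -0.08) and rbp4 (-0.91 to -0.03) lie to the left of 0, though neither gene passed. The 3 cyp26 genes are centred between -0.10 and -0.07.

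The retinoic acid hydroxylase genes of the cyp26 family did not pass the test. The gene cyp26b1 (NCBI gene 324188), in vertebrates a guard against retinoic acid in the hindbrain, skeleton and germ line, held most of the family's transcripts: 70.8 ± 1.88% of the summed cyp26 TPM in TCDD and 71.3 ± 6.53% in DMSO. It was at 51.4, 63.5, 51.4 and 53.2 CPM in TCDD and 48.1, 62.6, 58.8 and 63.4 CPM in DMSO, so that the ranges overlapped. Its log2 fold change was -0.09 ± 0.12 (95% interval -0.34 to 0.17, edgeR adjusted p = 0.72).

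The gene cyp26a1 (NCBI gene 30381), the family member most readily induced by retinoic acid in vertebrates, was at 5.54, 10.9, 5.94 and 8.11 CPM in TCDD and 6.39, 5.80, 6.78 and 13.6 CPM in DMSO. Within each group 1 library was far above the lowest, TCDD 2 and DMSO 4, and the interval of the change was the widest of the enzymes (log2 fold change -0.10 ± 0.29, 95% interval -0.74 to 0.55, edgeR adjusted p = 0.88). The gene cyp26c1 (NCBI gene 554036) was at 10.5, 9.91, 10.3 and 8.56 CPM in TCDD and 6.95, 8.89, 10.1 and 15.3 CPM in DMSO. Its TCDD values all lay within the DMSO range (log2 fold change -0.07 ± 0.21, 95% interval -0.53 to 0.38, edgeR adjusted p = 0.877). Without DMSO 4 the log2 fold change was 0.27 for cyp26a1 (adjusted p = 0.536) and 0.18 for cyp26c1 (adjusted p = 0.545). The retinal markers were also highest in DMSO 4 (1970 CPM) but lowest in TCDD 2 (42.7 CPM), where cyp26a1 was high, and their part in these values was not tested.

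The carrier gene rbp4 (NCBI gene 30077) was at 1980, 1772, 2040 and 1555 CPM in TCDD and 2785, 1657, 2649 and 3092 CPM in DMSO. The TCDD libraries were below 3 of the 4 DMSO libraries, and DMSO 2 fell among them. The difference did not pass (log2 fold change -0.47 ± 0.20, 95% interval -0.91 to -0.03, edgeR adjusted p = 0.194). Without DMSO 2 it passed, at -0.63 (adjusted p = 0.0217), and with offsets for implied transcript length, which was 578 bases for rbp4, it was -0.23 (adjusted p = 0.437). Set against the 14 liver markers, rbp4 equalled 4.70, 4.23, 5.24 and 4.61% of their summed CPM in TCDD and 4.06, 5.38, 6.14 and 7.84% in DMSO. The apolipoprotein gene apoa1b was the largest part of that sum, averaging 20630 CPM in TCDD and 21072 CPM in DMSO, so the ratio leans on this gene. The lowest ratio was in DMSO 1, where the liver sum (68575 CPM) and the liver fatty acid-binding protein gene fabp10a (5280 CPM, against 1344 to 1796 CPM in TCDD and 1541 to 2320 CPM in the other DMSO libraries) were highest. Not all liver markers were highest in DMSO 1. There fga (626 CPM), fgg (545 CPM) and cp (417 CPM) were below every TCDD library, whose lowest values were 676, 619 and 482 CPM. The implied transcript lengths of fabp10a (194 bases), apoa2 (416 bases) and apoa1b (923 bases) were under 1000 bases, a class whose share of counts was highest in DMSO 1. The part of liver content in the values of rbp4 was not tested.

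Whether genes of the same step moved unequally was asked of 6 pairs, by the log2 ratio of their CPM (plus 0.5) within each library and an exact two-sided permutation test over the 8 libraries. The ratio of rdh10a to rdh10b was 2.26, 2.33, 2.31 and 2.28 in TCDD and 1.86, 2.14, 1.99 and 1.99 in DMSO, a difference of 0.30. The ratio of aldh1a2 to aldh1a3 was 2.73, 2.70, 2.51 and 2.48 in TCDD and 3.62, 2.95, 2.93 and 2.86 in DMSO, a difference of -0.49. The ratio of dhrs3a to dhrs3b was -0.67, -0.63, -0.91 and -0.78 in TCDD and -0.51, -0.43, 0.04 and -0.16 in DMSO, a difference of -0.48. In these 3 pairs the groups did not overlap, and each gave an exact permutation p = 0.0286, the smallest that 4 against 4 allows. Adjusted over the 6 pairs each was p = 0.0571 (exact permutation test), so none passed. With only these 3 pairs at the smallest p, no lower adjusted p was possible. The missed threshold therefore cannot show that the genes of these pairs moved equally. The share of other gene pairs whose ratios do not overlap was not computed. The separation in these 3 pairs therefore has no background to be read against.

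The 3 cyp26 pairs had overlapping ratios. The difference in log2 ratio was 0.02 for cyp26a1 over cyp26b1, -0.04 for cyp26a1 over cyp26c1 and -0.07 for cyp26b1 over cyp26c1, each with an exact permutation p adjusted to 0.914. Their signs turned in fits that left out 1 library, with ranges of -0.14 to 0.24, -0.22 to 0.12 and -0.22 to 0.02 in the same order. The SD of these ratios within groups ran from 0.20 to 0.49, against 0.03 to 0.35 in the other pairs.

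**Figure D4:**
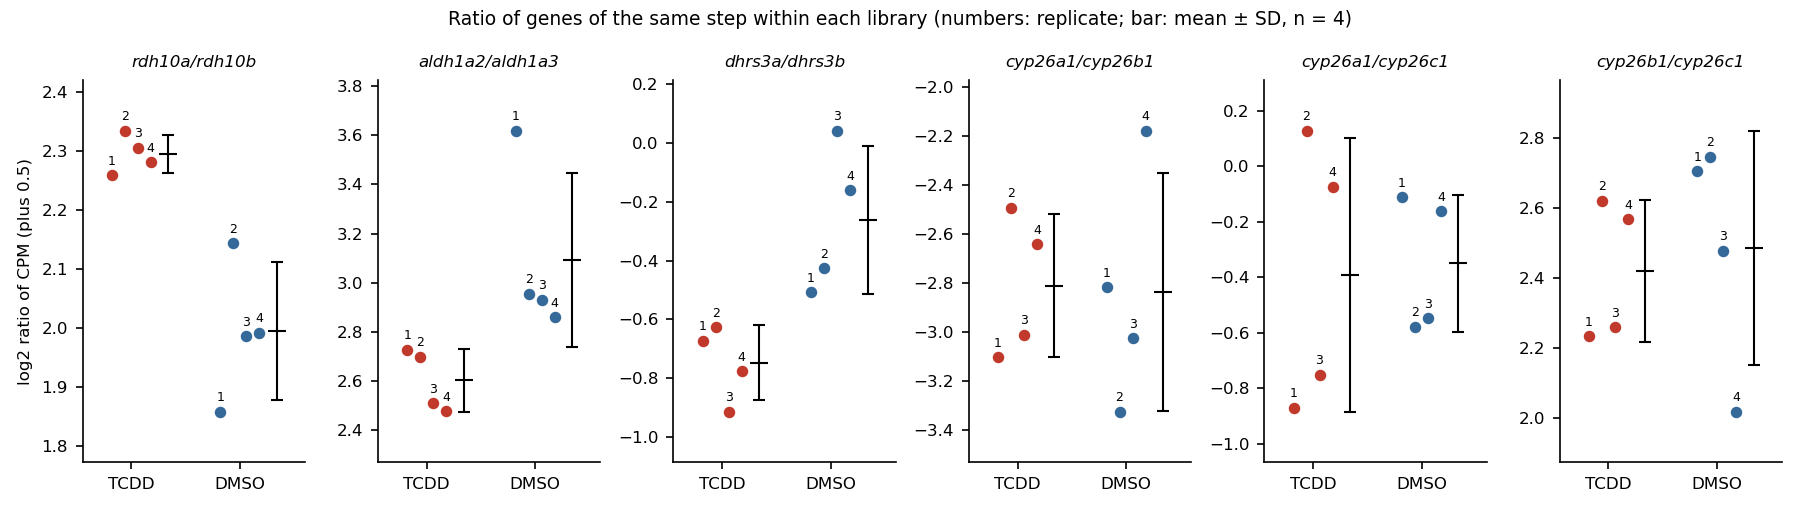
Log2 ratio of the CPM (plus 0.5) of 2 genes within each library for the 6 pairs, with TCDD left of DMSO; points are libraries numbered by replicate and bars are mean ± SD (n = 4). In the first 3 pairs the 4 TCDD libraries lie all above (rdh10a/rdh10b) or all below (aldh1a2/aldh1a3, dhrs3a/dhrs3b) the DMSO libraries, while the cyp26 pairs overlap. The share of other gene pairs that separate in this way was not computed.

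Out of 12369 named genes averaging 5 CPM or more, those with the pattern most like rdh10a over the 8 libraries were nrxn1b, nfe2l1b and lrrc1. Likeness was the root mean square difference in log2 CPM after centring each gene on its mean, and came to 0.06, 0.07 and 0.07. The synaptic adhesion gene nrxn1b averaged 21.7 ± 1.78 CPM in TCDD and 14.2 ± 0.690 CPM in DMSO (SD, n = 4 each). The stress-response transcription factor gene nfe2l1b averaged 15.0 ± 1.12 CPM in TCDD and 10.4 ± 0.546 CPM in DMSO, and the scaffold gene lrrc1 33.9 ± 3.85 CPM in TCDD and 23.1 ± 1.15 CPM in DMSO. Since they were picked for their likeness to a gene that rose, their changes are given without a test. Of the genes next to rdh10a in the gene order of another assembly, only stau2 was among the genes tested. It was at 307 CPM in TCDD and 321 CPM in DMSO (log2 fold change -0.06 ± 0.11, edgeR adjusted p = 0.772).

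In the same gene order dhrs3a, aldh1a3 and cyp26c1 each overlap a predicted gene. This overlap is of whole gene spans, and whether exons overlap was not examined. The sources used here do not say whether the counting used strand, so reads of such partners may be mixed with theirs.

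The rest of retinoid handling was read from 4 lists of receptors, cellular binding proteins, uptake and storage genes and further oxidoreductases. Of 49 tested genes in these lists 6 fell in TCDD, 0 rose and 43 did not pass, with a median log2 fold change of -0.28, beside 2.73% lower and a median of 4.6e-05 over all genes tested. Marker lists of several organs had negative medians too: -0.72 for cartilage (7 of 8 fell), -0.42 for skeletal muscle (0 of 9 passed), -0.38 for cardiomyocytes (2 of 11 fell), -0.38 for intestine (2 of 7 fell) and -0.37 for skin (2 of 8 fell). The median was -1.14 for retina, -0.29 for endothelium and endocardium and -0.26 for epicardium. Not all lists were low: the median was -0.03 for liver (1 of 14 rose) and 0.14 for the central nervous system (1 of 7 fell). The liver markers were split, with 6 positive and 8 negative log2 fold changes, from -0.89 (apoa2) to 0.97 (cp). The cartilage markers summed to 5241 to 6694 CPM in TCDD and 9166 to 10075 CPM in DMSO. Their part in the values of the retinoid genes was not tested. No receptor gene passed the test among 8 tested, with a median of 0.12 and log2 fold changes from -0.58 (rxrga) to 0.34 (rxrba). The most abundant, rarga, averaged 101 ± 4.31 CPM in TCDD and 86.8 ± 6.44 CPM in DMSO (log2 fold change 0.22 ± 0.10, edgeR adjusted p = 0.213). The receptor list summed to 292 to 313 CPM in TCDD and 265 to 289 CPM in DMSO, a difference in sums that was not tested.

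Among the cellular binding proteins 2 of 8 tested genes fell and 6 did not pass, with a median of -0.46, where 2.73% of all genes tested fell. The gene crabp1b, which encodes a cellular retinoic acid-binding protein, fell to 6.55, 6.24, 4.80 and 7.20 CPM in TCDD, against 11.8, 10.3, 10.3 and 10.9 CPM in DMSO (log2 fold change -0.80 ± 0.15, edgeR adjusted p = 0.0093). The gene rbp2a, for a cellular retinol-binding protein known from the intestine, fell to 184, 211, 218 and 178 CPM in TCDD, against 576, 252, 334 and 386 CPM in DMSO (log2 fold change -0.97 ± 0.21, edgeR adjusted p = 0.0227). With offsets for implied transcript length its log2 fold change was -0.56 and still passed. The 8 intestinal markers summed to 5744 to 7343 CPM in TCDD and 7539 to 9104 CPM in DMSO, and their part in the fall of rbp2a was not tested.

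In the list of uptake, storage and carotenoid cleavage 2 of 19 tested genes fell, beside the same 2.73% of all genes. The gene stra6, for the membrane receptor that takes retinol from RBP4, was at 15.5, 12.4, 20.3 and 14.7 CPM in TCDD and 25.3, 21.9, 23.8 and 23.7 CPM in DMSO (log2 fold change -0.59 ± 0.14, edgeR adjusted p = 0.0359). The gene rpe65b, a paralog of the retinoid isomerase gene of the eye, was at 14.5, 13.0, 14.6 and 14.2 CPM in TCDD and 21.4, 20.4, 19.2 and 16.6 CPM in DMSO (log2 fold change -0.46 ± 0.12, edgeR adjusted p = 0.0384). For both genes the groups did not overlap, as for 14% of all genes tested. The summed retinal markers were at 42.7 to 909 CPM in TCDD and 551 to 1970 CPM in DMSO. Of these 11 markers 10 had a negative log2 fold change, with a median of -1.14, and none passed. Only the cone opsin genes opn1sw2 (1.25 to 26.1 CPM in TCDD and 32.7 to 105 CPM in DMSO) and opn1mw1 (1.59 to 36.7 CPM in TCDD and 49.1 to 167 CPM in DMSO) did not overlap between groups. This was so for 14% of all genes tested. The smallest log2 fold changes of the list were -0.14 for rpe65a and 0.09 for rgra. The part of eye content in the falls of stra6 and rpe65b was not tested. The retinyl ester synthase gene lratb.1 and the carotenoid oxygenase gene bco1 did not pass.

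Of 14 further oxidoreductase genes 2 fell, against 2.73% of all genes tested: the alcohol dehydrogenase genes adh8a (0.853 ± 0.158 CPM in TCDD and 2.81 ± 0.779 CPM in DMSO, log2 fold change -1.70 ± 0.26, edgeR adjusted p = 0.004) and adh8b. The gene adh8b was at 105, 115, 134 and 111 CPM in TCDD and 231, 177, 204 and 223 CPM in DMSO (log2 fold change -0.84 ± 0.12, edgeR adjusted p = 0.0029). These close paralogs may share reads, so their separate levels are uncertain. The TCDD values of adh8a were low, at 1.08, 0.762, 0.734 and 0.836 CPM, where a floor of 3 counts is 0.198 to 0.214 CPM. Of 18 tested genes known from other work to respond to retinoic acid, tgm2b, for a transglutaminase, fell and 17 did not pass, with a median of 0.01. A count of 1 in 18 is near the 5.72% that passed over all genes. The gene tgm2b was at 36.8, 34.6, 33.4 and 29.1 CPM in TCDD and 88.0, 51.8, 55.5 and 47.6 CPM in DMSO (log2 fold change -0.86 ± 0.18, edgeR adjusted p = 0.0178), and the 9 Hox and Cdx genes of that list were among those that did not pass or had too few counts.

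**Figure D5:**
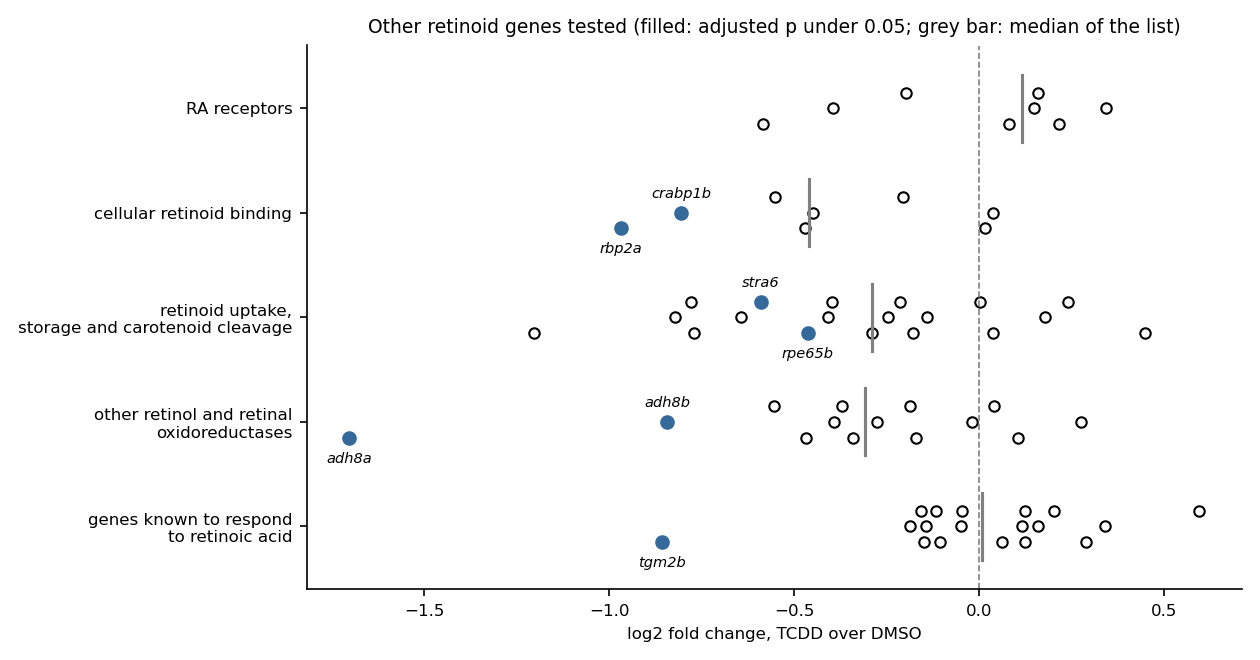
Log2 fold change (TCDD over DMSO) of the other retinoid genes tested, by list; each point is a gene, filled where the edgeR adjusted p was under 0.05, and grey bars are list medians. All filled points lie left of 0, from adh8a at -1.70 to rpe65b at -0.46, and the receptor list holds none.

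The falls of adh8a, adh8b, crabp1b and tgm2b passed in all 18 alternative fits, and those of rbp2a, stra6 and rpe65b each missed the threshold in some of them. For rbp2a the adjusted p (edgeR) was 0.0664 without TCDD 1, 0.0525 without TCDD 2 and 0.0508 without TCDD 4. For stra6 it was 0.0972 with library size alone and 0.123 without both DMSO 1 and TCDD 2. Leaving out 1 library, the stra6 value was 0.0545 (DMSO 1), 0.102 (DMSO 3), 0.0673 (DMSO 4), 0.0923 (TCDD 1), 0.0981 (TCDD 2) or 0.0769 (TCDD 4). For rpe65b it was 0.153 with library size alone, 0.0582 with the replicate number as a block and 0.160 without both DMSO 1 and TCDD 2. Leaving out 1 library, the rpe65b value was 0.068 (DMSO 1), 0.105 (DMSO 3), 0.0864 (TCDD 1), 0.107 (TCDD 2), 0.0718 (TCDD 3) or 0.066 (TCDD 4). The rise of rdh10a passed in all 18 fits (adjusted p at most 0.0402).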

How the data were processed

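For every gene and library the authors deposited an estimated (expected) read count, a TPM and an FPKM. Per the submitters' processing notes Bowtie2 aligned the reads to GRCz11; the sources used here name no quantifier, annotation or filter. The deposited estimated counts carry no normalization. TPM and FPKM, scaled for length and depth, were computed by the authors. FPKM served only, with the counts, to imply transcript lengths, which were not checked against an annotation.

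Counts were rounded. The test was edgeR 4.0.16 (R 4.3.3) with a robust quasi-likelihood F-test, two-sided, TMM scaling and filterByExpr by group, adjusted by Benjamini-Hochberg over the 20522 genes kept. The SE is the log2 fold change over the square root of F, and 95% intervals use the t distribution. The test was checked on simulated data. A floor of 3 counts is 0.198 to 0.214 CPM and covers counting error only. Libraries of a group differed by a chi-square of at least 9.00 per degree of freedom, so none was a copy.

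The genes and lists were chosen with earlier results of these data known. Named by rule were all 10 genes, called genes of the other retinoid lists, the check genes cyp1a, myl7 and fabp10a, and the 3 genes most like each called member. The genes rarga, rxrga, rxrba, lratb.1, bco1, stau2, opn1sw2, opn1mw1, rpe65a and rgra were named after their values were seen. So were apoa1b, apoa2, cp, fga, fgg and the epicardial markers. Alternatives were DESeq2 1.42.0, limma-voom (limma 3.58.1), no robust estimation, RLE factors, library size alone, no filter, 1 CPM in 4 samples, a replicate block, offsets from a smooth (span 0.3) on implied length, libraries left out, and for the ratios pseudocounts of 0.1 and 1 CPM and the deposited TPM. Some genes first placed in the list of cellular binding proteins are not reported here, for a reason other than their values, and were left out of its counts. Replicate numbers were not used to pair the samples in the main test. Python 3.11.15, pandas 2.3.3, SciPy 1.17.1 and matplotlib 3.10.9 were also used.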

Additional observations from a re-analysis of the deposited data

Results flagged for a closer look

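Within a group of 4, 1 library lay far from the other 3 in 4 of the 52 groups of values examined, where chance flags about 1 in 20. The gene cyp26a1 was at 13.6 CPM in DMSO 4, against 5.80 to 6.78 CPM in the other DMSO libraries. The summed retinal markers were at 1970 CPM in DMSO 4, against 551 to 744 CPM in the other DMSO libraries. The gene cyp26b1 was at 63.5 CPM in TCDD 2, against 51.4 to 53.2 CPM in the other TCDD libraries. The log2 ratio of aldh1a2 to aldh1a3 was 3.62 in DMSO 1, against 2.86 to 2.95 in the other DMSO libraries.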

How the results depend on the processing

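The rise of rdh10a kept its direction and its call in all 18 alternatives, with log2 fold changes of 0.47 to 0.67, and 1 gene of the 10 was called higher in each fit that left out 1 library. The count of the 10 called lower ranged from 0 to 1 in those fits, the 1 being rbp4 without DMSO 2. With library size alone the median of all genes shifted to 0.13, so that the changes became 0.027 for cyp26a1, 0.031 for cyp26b1 and 0.043 for cyp26c1, all below that shift. Leaving out 1 library gave -0.33 to 0.27 for cyp26a1 and -0.22 to 0.18 for cyp26c1, and a positive value for cyp26a1 without TCDD 1 (0.024). The count of all genes called was 2007 with DESeq2, 616 without both DMSO 1 and TCDD 2, and 523 to 1854 without 1 library. The differences in ratio without 1 library were 0.25 to 0.35 for rdh10a/rdh10b, -0.57 to -0.31 for aldh1a2/aldh1a3, -0.57 to -0.38 for dhrs3a/dhrs3b, -0.14 to 0.24 for cyp26a1/cyp26b1, -0.22 to 0.12 for cyp26a1/cyp26c1 and -0.22 to 0.020 for cyp26b1/cyp26c1. The cause of these shifts was not tested. Deviations from the group mean correlated at -0.37 to 0.35 between same-numbered libraries of the 2 groups and at -0.52 to 0.63 between differently numbered ones. Whether a shared number marks a shared clutch or batch cannot be told from these values. With the replicate number as a block rdh10a changed by 0.55 (edgeR adjusted p = 0.0144), and 1347 genes were called, against 1174 without it. The lowest count of a member in any library was 80, and each group had 4 libraries.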
